A study of Mus musculus with 5 samples.

Results

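Immediate early genes are transcribed within minutes of a stimulus, without new protein synthesis, and 10 of them were examined in RNA of mouse splenic natural killer (NK) cells: Fos, Fosb, Jun, Junb, Jund, Egr1, Nr4a1, Ier2, Ier3 and Dusp1. They were taken by symbol, and all 10 were among the 13004 genes of the deposited table. The cells were sorted live as CD3-NK1.1+DX5+ cells from spleens of 8-week C57BL/6 mice. There were 3 control libraries of genotype Mycf/f (1, 2 and 3), with both Myc alleles flanked by loxP sites and no Cre named, and 2 libraries of genotype Mycdelta/delta/Ncr1Cre, called MycKO here (5 and 6). In the latter, Cre recombinase driven by Ncr1, the gene of the NK receptor NKp46, deletes Myc in cells that express this receptor. Presence of Cre and deletion of Myc therefore cannot be told apart. Whether the libraries came from different mice is not stated in the labels, and p-values here measure only the spread between samples, which may be technical.

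FOS and JUN proteins are basic leucine zipper factors that pair to form AP-1, which binds regulatory DNA of activation genes. EGR1 is a zinc finger factor and NR4A1 an orphan nuclear receptor, both induced by antigen or NK receptor signals through calcium and MAP kinase pathways. DUSP1 is a phosphatase that switches off MAP kinases, and it is induced by the same signals that it ends. Transcripts of these genes are short-lived, so their level follows the recent signalling history of a cell.

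Values are RPKM, reads scaled by transcript length and library total. Listed genes held 14290690 to 17610826 reads per control, 5451728 in MycKO 5 and 13337084 in MycKO 6, so MycKO 5 was the shallowest library. Myc itself, the targeted gene, measured 12.98, 22.97 and 21.24 RPKM in the controls against 12.5 and 8.70 RPKM in the MycKO libraries, a difference that missed the threshold (limma log2 fold change -0.77, adjusted p = 0.297). The value counts the whole gene and does not measure how complete the deletion was. Ncr1 was at 930.8 to 1619.2 RPKM in controls and at 632.8 and 744.1 RPKM in MycKO (limma adjusted p = 0.143). The authors' deposited table called it lower in MycKO (log2 ratio -0.94, adjusted p = 0.000689), as did limma without control 2 (adjusted p = 0.0265). NK markers dominated every library. Summed over 10 genes, they were at 12329.3 to 14354.3 RPKM in controls and at 9706.5 and 11441.8 RPKM in MycKO, with Gzma, the granzyme A gene, as the most abundant. Markers of other spleen cells were more abundant in MycKO. Their sums are given for MycKO 5 first and MycKO 6 second. The 12 macrophage and monocyte markers, all with a higher mean in MycKO, summed to 225.4 to 385.7 RPKM in controls. In MycKO they summed to 1450.7 and 1175.7 RPKM. The corresponding sums were 35.2 to 54.2 against 136.1 and 201.1 RPKM for T cell markers (8 of 9 higher). They were 55.4 to 76.9 against 128.2 and 109.8 RPKM for B cell markers (10 of 10 higher). For neutrophil markers they were 21.9 to 74.0 against 551.4 and 228.2 RPKM (6 of 6 higher). Basophil and mast cell markers were at 3.57 to 5.58 against 68.3 and 9.56 RPKM (6 of 6). Red cell and platelet markers were at 4.65 to 9.55 against 210.6 and 95.5 RPKM (6 of 6). Of these sums, only that of T cell markers was higher in MycKO 6. Mpo of the neutrophil list and Mcpt8 of the basophil and mast cell list were listed at 0 in all controls. The leading genes of these lists were Lyz2, Cd3g, Cd79b, S100a8, Mcpt8 and Car1. In sorted bulk cells, fewer cells of a type and less RNA per cell cannot be told apart.

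The start-site promoters of the members are shown as sequence background. Whether their motifs relate to the levels of the members in the libraries was not tested. RefSeq promoter sequences (GRCm38.p6, the mm10 assembly; 250 bases before to 50 after the start site) matched 8 of the 10 members, all but Egr1 and Ier2. In 7 of the 8 the window holds a GENCODE transcript start of the gene, at most 30 bases from the RefSeq start. The Jund window does not, since the GENCODE start of Jund lies 1210 bases downstream of the RefSeq start. Jun, Jund and Ier3 are the promoters without a match below. Both strands were searched for the cAMP response element (CRE) TGACGTCA, its half-site TGACG, the AP-1 site TGACTCA, the E-box CACGTG bound by MYC with MAX, the EGR site GCGGGGGCG, the TATA box TATAAA and the CArG box of serum response factor. The half-site was added after the sequences were seen, and it overlaps the full CRE by construction. Sequences with a match are printed 5′ to 3′ with matches in capitals. They lie at chr12:85473640-85473939 (Fos, plus strand), chr7:19309996-19310295 (Fosb, minus), chr8:84978699-84978998 (Junb, minus), chr15:101266596-101266895 (Nr4a1, plus) and chr17:26508423-26508722 (Dusp1, minus).
Fos: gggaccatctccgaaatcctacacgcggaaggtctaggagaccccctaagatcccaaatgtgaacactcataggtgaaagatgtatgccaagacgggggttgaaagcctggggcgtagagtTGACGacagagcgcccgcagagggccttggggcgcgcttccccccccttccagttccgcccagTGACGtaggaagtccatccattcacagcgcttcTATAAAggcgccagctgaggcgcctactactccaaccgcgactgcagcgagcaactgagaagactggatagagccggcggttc
Fosb: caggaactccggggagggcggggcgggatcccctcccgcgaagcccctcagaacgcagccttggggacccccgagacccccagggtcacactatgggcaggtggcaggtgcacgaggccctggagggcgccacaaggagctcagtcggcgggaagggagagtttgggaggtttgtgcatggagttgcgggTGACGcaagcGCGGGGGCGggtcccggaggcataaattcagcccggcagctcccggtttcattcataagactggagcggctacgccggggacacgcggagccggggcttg
Junb: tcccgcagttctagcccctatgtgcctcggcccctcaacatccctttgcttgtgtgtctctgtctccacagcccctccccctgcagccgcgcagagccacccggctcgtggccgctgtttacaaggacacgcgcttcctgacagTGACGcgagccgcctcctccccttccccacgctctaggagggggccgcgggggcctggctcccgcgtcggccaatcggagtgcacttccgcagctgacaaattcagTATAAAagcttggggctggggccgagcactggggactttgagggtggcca
Nr4a1: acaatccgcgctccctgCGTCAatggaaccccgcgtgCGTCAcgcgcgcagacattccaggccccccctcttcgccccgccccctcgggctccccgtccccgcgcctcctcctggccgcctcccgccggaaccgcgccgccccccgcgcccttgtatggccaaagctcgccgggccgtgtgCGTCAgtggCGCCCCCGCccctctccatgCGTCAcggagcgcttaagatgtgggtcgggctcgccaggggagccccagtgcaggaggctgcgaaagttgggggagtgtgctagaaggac
Dusp1: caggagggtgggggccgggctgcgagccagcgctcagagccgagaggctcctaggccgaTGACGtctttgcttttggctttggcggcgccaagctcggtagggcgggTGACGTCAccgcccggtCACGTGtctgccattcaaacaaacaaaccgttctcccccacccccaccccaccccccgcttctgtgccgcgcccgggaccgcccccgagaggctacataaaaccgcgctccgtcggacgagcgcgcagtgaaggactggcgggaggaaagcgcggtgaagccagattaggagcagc

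The CRE half-site was found in 5 of the 8 promoters and in 20.8% of the 32851 promoters in the table. Fos held it 129 and 66 bases before the start site, followed by a TATA box at 33 bases. Fosb held it 60 bases before the start site, next to an EGR site at 50 bases. Nr4a1 held 4 half-sites (233, 213, 69 and 40 bases before the start site) and an EGR site at 60 bases. Dusp1 held the only full CRE among the 8, at 143 bases, an E-box at 126 bases and a separate half-site at 191 bases. In Junb the half-site lay 106 bases before the RefSeq start, and a TATA box began at that start. The GENCODE start of Junb lies 30 bases further downstream. The full CRE occurred in 1.79% of all promoters, the EGR site (2 of 8 members) in 2.91%, the E-box (1 of 8) in 7.15% and the TATA box (2 of 8) in 13.6%. No AP-1 site or CArG box lay in these 8 windows, against 5.2% and 1.63% of all promoters. With shares this low, an absence from 8 windows says little. Bases further upstream, and the promoters of Egr1 and Ier2, were not searched. GC content, which can affect how often such motifs occur, was 54.0% to 72.3% in the 7 windows that hold a GENCODE start. It was 46.7% in the Jund window and 52.7% in the median promoter. The part of GC content in the motif counts was not tested. A match is a run of letters and was not tested for binding.

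None of the 10 genes passed a test of MycKO against control. Of the 9 with at least 1 RPKM in at least 2 libraries, 0 passed limma at an adjusted p of 0.05, against 1.34% of the 11190 genes tested (150 genes). At an unadjusted p under 0.05 there were 2, Egr1 and Nr4a1, both higher in MycKO, beside 13.2% of all genes. Without control 1 there were 5 (Jun, Ier3 and Dusp1 in addition), with no variance trend 1 (Egr1) and without MycKO 5 there were 0. Limma-voom on the recovered reads called 0 of 9 (2.07% of all genes), and the authors' deposited table called 0 of 10 (3.4% of all genes). Fold changes below are on the log2(RPKM + 1) scale, which understates changes of low genes. Over the 9 genes tested they ranged from -0.24 to 1.19 with a median of 0.66, beside 0.05 over all genes. The median turned to -0.18 without control 3, and over the 10 genes of the authors' deposited table it was 0.04, beside 0.0052 over all genes there. Of the 9, 6 were above 0 and 3 below. What varied most was the level between libraries of 1 group: Fos, Fosb, Jun and Dusp1 were high in control 1, intermediate in control 2 and low in control 3.

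**Figure D1:**
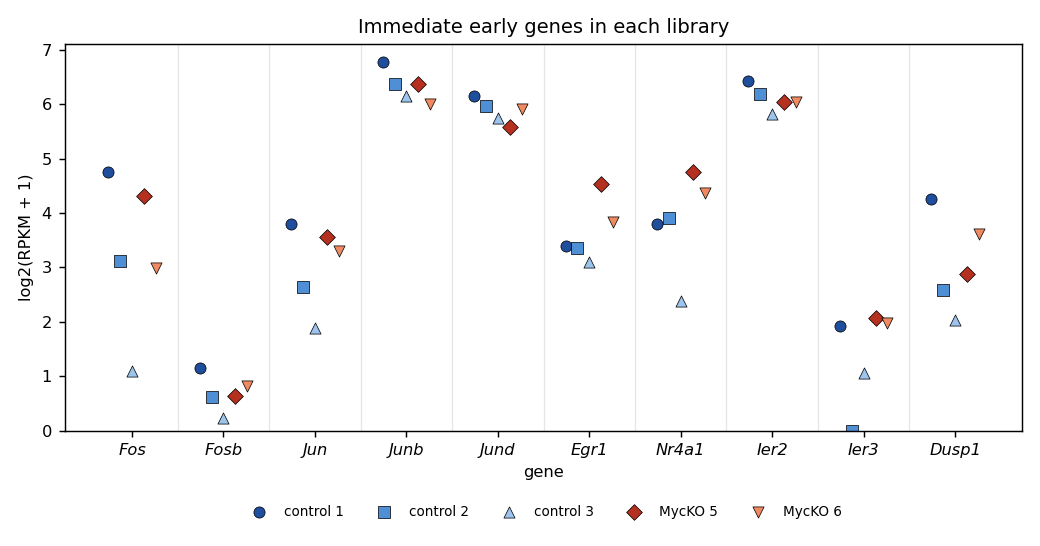
Level of each of the 10 genes in each library, as log2(RPKM + 1); each point is 1 library (blue shades, controls; red shades, MycKO). For Fos the 3 controls span 1.14 to 25.8 RPKM and enclose both MycKO libraries, while for Egr1, Nr4a1 and Ier3 both MycKO libraries lie above all 3 controls.

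Fos (Entrez 14281; chromosome 12, 85473890 to 85477273 on the plus strand of mm10) encodes the inducible AP-1 partner of JUN proteins. It measured 25.8 RPKM in control 1, 7.70 in control 2 and 1.14 in control 3, against 18.9 RPKM in MycKO 5 and 6.94 in MycKO 6. Control 1 was the highest library and control 3 the lowest, and both MycKO libraries lay between them. The 3 control values rest on 814, 284 and 34 reads, and the MycKO values on 216 and 194 reads. The ratio of control 1 to control 3 was 22.7, with an exact 95% interval from counting error alone of 16.1 to 33.1. Within MycKO, library 5 was 2.72 times library 6 (2.23 to 3.32). The group means were 11.6 ± 12.8 RPKM (SD, n = 3) and 12.9 ± 8.46 RPKM (SD, n = 2). The SD exceeded the mean in the controls. The log2 fold change, 0.67 (SE 0.94), had a limma adjusted p of 0.867, and it turned to -0.28 without control 3. In the authors' deposited table it was 0.09.

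Fosb (Entrez 14282; chromosome 7, 19302696 to 19310051, minus strand), a second FOS protein gene, was near the lower end of measurement. It measured 1.21 RPKM in control 1, 0.527 in control 2 and 0.179 in control 3, against 0.558 RPKM in MycKO 5 and 0.768 in MycKO 6. It repeated the order of Fos in the controls, and the MycKO libraries again lay inside the range of the controls. Control 1 exceeded control 3 by 6.77 times, with a counting interval of 3.99 to 12.2 from 114 and 16 reads. Only control 1 reached 1 RPKM, so Fosb was not tested. In the authors' deposited table its log2 ratio was -0.0085.

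Jun (Entrez 16476; chromosome 4, 95049034 to 95052222, minus strand), the prototype JUN gene, followed Fos among the controls on a smaller scale. Control 1 had 12.96 RPKM, control 2 had 5.20 and control 3 had 2.68, while MycKO 5 had 10.8 RPKM and MycKO 6 had 8.79. Control 1 was highest and control 3 lowest of all 5 libraries, a 4.84-fold ratio (counting interval 3.98 to 5.93). The means were 6.95 ± 5.36 RPKM (SD, n = 3) and 9.80 ± 1.43 RPKM (SD, n = 2). The log2 fold change, 0.66 (SE 0.51), had a limma adjusted p of 0.697. Without control 1 it was 1.17, with an adjusted p of 0.297.

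The other JUN genes were expressed at higher levels and varied less. Junb (Entrez 16477; chromosome 8, 84974484 to 84978718, minus strand), often described as a less potent activator than JUN, measured 107.9 RPKM in control 1, 81.7 in control 2 and 69.5 in control 3, against 81.4 RPKM in MycKO 5 and 63.4 in MycKO 6. The groups overlapped, and control 1 stood highest. Jund (Entrez 16478; chromosome 8, 70698949 to 70700616, plus strand), the least inducible JUN gene, measured 69.6, 61.4 and 52.5 RPKM in the same controls, against 46.7 RPKM in MycKO 5 and 59.1 in MycKO 6. Here control 1 was again highest, while the lowest library was MycKO 5. Control 1 exceeded control 3 by 1.55 times for Junb (counting interval 1.46 to 1.65) and by 1.33 times for Jund (1.25 to 1.40). The log2 fold changes were -0.24 (SE 0.20) for Junb and -0.21 (SE 0.16) for Jund, with limma adjusted p-values of 0.715 and 0.703.

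Among the 5 FOS and JUN genes examined, the shares of the transcript total differed between libraries of 1 group. Other FOS family genes are not in this total; of these, Fosl2 was at 10.6 to 15.4 RPKM in all 5 libraries. Fos supplied 11.9%, 4.92% and 0.902% of this summed RPKM in controls 1, 2 and 3. Its share was 11.9% in MycKO 5 and 4.995% in MycKO 6. Jun supplied 6.81%, 3.51% and 2.15% of the JUN total of these controls, against 7.79% in MycKO 5 and 6.70% in MycKO 6. Junb and Jund made up the rest of the JUN total in each library, and Jund exceeded Jun by 4.32 times (MycKO 5) to 19.6 times (control 3).

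Egr1 (Entrez 13653; chromosome 18, 34859823 to 34864984, plus strand), induced by MAP kinase signalling through serum response factor, differed in pattern from Fos. Its level was 9.47 RPKM in control 1, 9.24 in control 2 and 7.54 in control 3, against 22.2 RPKM in MycKO 5 and 13.3 in MycKO 6. The controls lay close together, both MycKO libraries lay above them, and the MycKO libraries differed 1.67-fold from each other (counting interval 1.46 to 1.91). The means were 8.75 ± 1.06 RPKM (SD, n = 3) and 17.8 ± 6.28 RPKM (SD, n = 2). The log2 fold change of 0.91 (SE 0.25) had a limma p of 0.00816 and an adjusted p of 0.168. In the authors' deposited table it was 0.95 with an adjusted p of 0.0503. Without MycKO 5 it was 0.56, with a limma adjusted p of 0.732.

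Nr4a1 (Entrez 15370; chromosome 15, 101254269 to 101274795, plus strand), the gene of the receptor NUR77 and a common reporter of antigen receptor signals in lymphocytes, measured 12.98 RPKM in control 1, 13.96 in control 2 and 4.24 in control 3. MycKO 5, at 26.1 RPKM, and MycKO 6, at 19.6 RPKM, lay above all controls. Control 3 was again the lowest library, 3.30-fold below control 2 (counting interval 2.75 to 3.97), but controls 1 and 2 lay within counting error of each other (ratio 0.93, interval 0.82 to 1.05). The log2 fold change was 1.19 (SE 0.44), the highest of the 9, with a limma p of 0.0297 and an adjusted p of 0.311. It was 0.71 without control 3, with an adjusted p of 0.298, and 1.46 without control 2, with an adjusted p of 0.192.

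Groups that do not overlap, with MycKO higher, were seen for Egr1, Nr4a1 and Ier3, 3 of 9 genes tested, and for 18.8% of all genes tested. With MycKO lower, the count was 0 of 9, beside 10.4% of all genes. Macrophages also express Egr1 and Nr4a1. The sum of macrophage and monocyte markers was 1450.7 RPKM in MycKO 5, which had more Egr1 and Nr4a1, and 1175.7 RPKM in MycKO 6. The order of the MycKO sums was that of Lyz2, at 733.6 RPKM in MycKO 5 and 210.5 in MycKO 6. Csf1r and Cd68 were also higher in MycKO 5, and all other markers of this list were lower there. Among controls the marker sum was highest in control 2, at 385.7 RPKM. Lyz2 was highest there too, at 219.7 RPKM against 102.0 in control 1 and 55.06 in control 3. In control 2, Egr1 was at 9.24 RPKM, within the range of the other controls, and Nr4a1 at 13.96 RPKM, the highest of the controls. Other marker sums were also higher in MycKO 5 than in MycKO 6. They were 551.4 against 228.2 RPKM for neutrophil markers and 68.3 against 9.56 RPKM for basophil and mast cell markers. Red cell and platelet markers were at 210.6 against 95.5 RPKM, and B cell markers at 128.2 against 109.8 RPKM. T cell markers went the other way, at 136.1 against 201.1 RPKM. The part of any of these cells in the Egr1 and Nr4a1 values was not tested.

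Ier3 (Entrez 15937; chromosome 17, 35821684 to 35822923, plus strand), a stress-induced gene linked to survival, measured 2.80 RPKM in control 1, 0 in control 2 and 1.09 in control 3, against 3.19 RPKM in MycKO 5 and 2.96 in MycKO 6. Control 2 had no read, and the MycKO values lay only just above control 1, with 46 reads in control 1 and 19 and 43 in MycKO. Its log2 fold change, 1.03 (SE 0.56), had a limma adjusted p of 0.525, and it was 0.53 without control 2, 1.49 without control 1, 2.18 with a pseudocount of 0.1 and 3.002 in limma-voom. Ier2 (Entrez 15936; chromosome 8, 84661331 to 84662852, minus strand), an early response gene whose product acts in the nucleus, was among the most abundant of the 10. Its level was 84.97 RPKM in control 1, 72.2 in control 2 and 55.5 in control 3, against 64.9 RPKM in MycKO 5 and 65.0 in MycKO 6. Controls 1 and 3 were the extremes, and the nearly equal MycKO libraries lay between them. Its log2 fold change, -0.10 (SE 0.18), had a limma adjusted p of 0.899, and it turned to 0.04 without control 1.

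Dusp1 (Entrez 19252; chromosome 17, 26505590 to 26562128, minus strand), the MAP kinase phosphatase, measured 18.2 RPKM in control 1, 4.999 in control 2 and 3.10 in control 3. MycKO 5, at 6.32 RPKM, and MycKO 6, at 11.3 RPKM, lay inside the range of the controls. Control 1 exceeded control 3 by 5.89 times (counting interval 4.68 to 7.48). Among the MycKO libraries the order was opposite to that of Fos, with library 5 at 0.56 of library 6 (interval 0.42 to 0.73). The means were 8.78 ± 8.24 RPKM (SD, n = 3) and 8.81 ± 3.52 RPKM (SD, n = 2), and the log2 fold change of 0.29 (SE 0.62) had a limma adjusted p of 0.925. It turned to -0.18 without control 3 and to -0.09 without MycKO 6. The annotated Dusp1 gene overlaps the start of Ergic1 on the opposite strand, and Junb overlaps Prdx2. Ergic1 starts at 26561489, so it meets only the upstream end of the annotated Dusp1 gene. A Dusp1 transcript start shared by RefSeq and GENCODE lies at 26508472. Jun and Jund overlap antisense genes (Junos and Gm11175). Whether counting used the strand is not stated, so reads of such partners cannot be told apart.

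**Figure D2:**
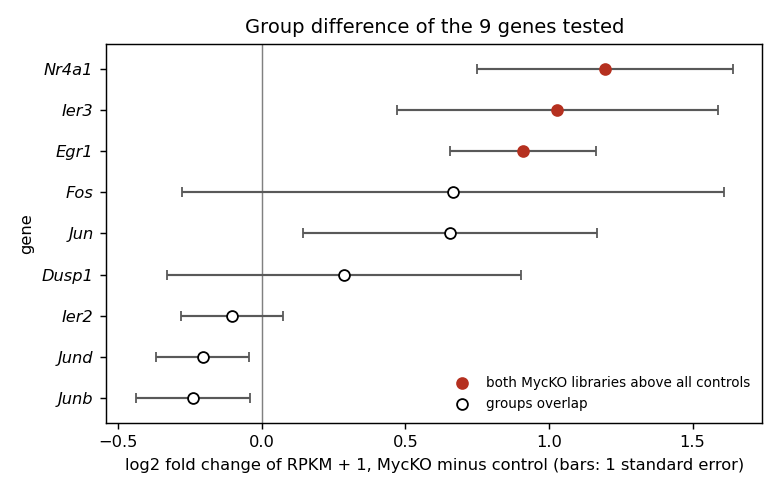
Log2 fold change of RPKM + 1, MycKO minus control, for the 9 genes tested; points are limma estimates, bars 1 standard error, filled points genes whose MycKO libraries both lie above all controls. Estimates run from -0.24 (Junb) to 1.19 (Nr4a1), none passed the adjusted threshold, and the widest bar is that of Fos (SE 0.94).

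The spread between libraries was measured as the residual SD about the group means on the log2 scale. It was 1.59 for Fos, 1.00 for Dusp1, 0.80 for Jun, 0.79 for Ier3, 0.71 for Nr4a1, 0.31 for Egr1, 0.30 for Junb, 0.25 for Ier2 and 0.21 for Jund. The median over all genes tested was 0.24, and 8 of the 9 lay above it. A residual SD above 0.5 was found in 5 of 9, beside 16% of all genes. Only 0.393% of tested genes had a larger value than Fos, 2.32% than Dusp1 and 4.92% than Jun. Low genes scatter more, so the same was read at one level of expression. Among the 4573 genes with an average log2(RPKM + 1) of 2.5 to 4.5, whose median was 0.24, 0.372% exceeded Fos, 1.31% Dusp1, 2.67% Jun, 3.63% Nr4a1 and 32.6% Egr1. Among the 1035 genes at 5.5 to 6.5, with a median of 0.15, 8.60% exceeded Junb, 16.7% Ier2 and 24.8% Jund. These are descriptions with no test.

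**Figure D3:**
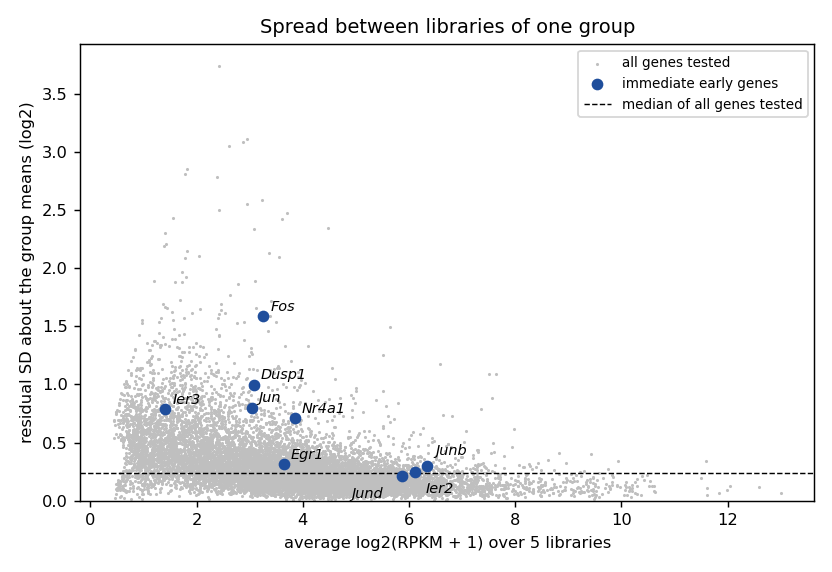
Residual SD of log2(RPKM + 1) about the group means against the average level over 5 libraries; grey points are the 11190 genes tested, blue points the 9 immediate early genes, and the dashed line the median of all genes (0.24). Fos (1.59), Dusp1 (1.00), Jun (0.80) and Nr4a1 (0.71) lie at the upper edge of the genes at their level, and Jund lies just under the line.

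The members shared 1 order among the controls. Control 1 lay above control 2 and control 2 above control 3 in 7 of the 9 genes tested, and in Fosb; this order was seen in 12.1% of all genes tested. The exceptions were Nr4a1 and Ier3. For Egr1, controls 1 and 2 lay within counting error of each other (interval of the ratio 0.90 to 1.17). Control 3 was the lowest of all 5 libraries in 6 of 9 genes tested, beside 18.3% of all genes. The difference of control 1 minus control 3, as log2(RPKM + 1), was 3.65 for Fos, 2.23 for Dusp1, 1.92 for Jun, 1.42 for Nr4a1 and 0.86 for Ier3. It was 0.63 for Junb, 0.61 for Ier2, 0.40 for Jund and 0.29 for Egr1. Over all genes tested the median difference was -0.01, and the range from the 5th to the 95th percentile was -0.78 to 0.67. A larger difference than that of Fos was seen in 0.0358% of tested genes, than that of Dusp1 in 0.161% and than that of Jun in 0.206%. This pattern was picked out after the values were seen and compares single libraries, not conditions. Depth differed little between these libraries, at 15050801 and 14290690 reads. Their macrophage and monocyte markers summed to 245.9 and 225.4 RPKM, their NK markers to 14354.3 and 13293.8 RPKM, their T cell markers to 48.1 and 35.2 RPKM and their neutrophil markers to 55.4 and 21.9 RPKM. S100a8, the leading neutrophil marker, had the same order, at 34.4, 19.4 and 8.57 RPKM in controls 1, 2 and 3. Its difference of control 1 minus control 3 was 1.89. Of the 5 neutrophil markers tested, 1 had this order. The part of other cells in the order of the controls was not tested.

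**Figure D4:**
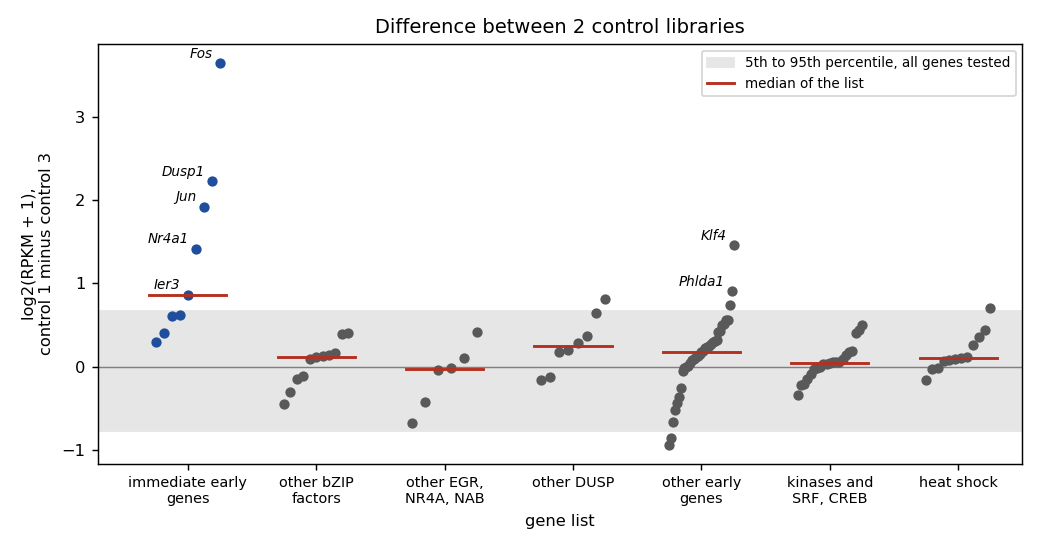
Difference in log2(RPKM + 1) between control 1 and control 3 for the genes tested in each list; points are genes, red lines list medians, and the grey band the 5th to 95th percentile of all genes tested (-0.78 to 0.67). Fos (3.65), Dusp1 (2.23), Jun (1.92), Nr4a1 (1.42) and Ier3 (0.86) lie above the band, and the medians of the 6 other lists drawn lie between -0.03 and 0.24.

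The median difference between the controls was smaller in the other lists of the pathway. The median of control 1 minus control 3 was 0.86 in the 9 members and 0.24 in 8 other dual-specificity phosphatases. It was 0.18 in 35 other rapidly induced genes, 0.12 in 11 other basic leucine zipper factors of the AP-1, ATF, BATF and MAF families and 0.10 in 12 heat shock genes. Kinases and the SRF and CREB factors upstream (21 genes) were at 0.04, and 6 other EGR, NR4A and NAB genes at -0.03. Several genes of these lists lay within the range of the members, which began at 0.29 (Egr1), while others lay below it. Csrnp1 (0.74), Hsph1 (0.70) and Dusp6 (0.64) lay above Junb (0.63), and Ier5 (0.42) lay above Jund (0.40). Klf4, a Krüppel-like factor gene, had a difference of 1.46, above that of 6 of the 9 members, with 3.84, 3.66 and 0.758 RPKM in controls 1, 2 and 3. Phlda1, at 4.63, 4.59 and 2.01 RPKM, had 0.90, and Dusp10, a phosphatase gene, had 0.82. The genes of these lists named here were chosen after their values were seen. The share of genes with control 1 above 2 above 3 was 7 of 35 for the other rapidly induced genes, 3 of 8 for the phosphatases, 3 of 12 for heat shock genes and 0 of 6 for the EGR, NR4A and NAB list.

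Between the groups, 4 genes of these pathway lists rose in MycKO by limma and none fell; over all genes tested, 1.24% rose. Of 11 other basic leucine zipper factors, 1 rose: Maf, from 10.7 ± 0.744 to 24.6 ± 0.0216 RPKM (SD, n = 3 and 2; log2 fold change 1.12, limma adjusted p = 0.0295). Batf3, a factor of dendritic cell development, had the next smallest p and missed the threshold, at 1.68, 5.02 and 2.65 RPKM in the controls against 8.49 RPKM in MycKO 5 and 12.2 in MycKO 6 (1.52, limma adjusted p = 0.133). Of 35 other rapidly induced genes, 3 rose. Rgs2, a regulator of G protein signalling, rose from 24.0 ± 2.56 to 47.7 ± 6.93 RPKM (0.96, limma adjusted p = 0.0387). Its relative Rgs1 rose from 32.3 ± 3.66 to 59.2 ± 5.51 RPKM (0.86, limma adjusted p = 0.0402). Cd83, an activation antigen of B and dendritic cells, rose from 3.96 ± 1.46 to 15.1 ± 2.76 RPKM (1.73, limma adjusted p = 0.0497). All 4 lost the call without control 1, control 3, MycKO 5 or MycKO 6 (adjusted p-values of 0.082 to 0.289), and Rgs1 (0.0515) and Cd83 (0.0642) also without control 2. The calls of Rgs1, Rgs2 and Cd83 were lost as well with scaling by median of ratios (0.0512 to 0.0564), a pseudocount of 0.1 (0.054 to 0.0776) and no variance trend (0.0857 for Rgs2, 0.101 for Rgs1 and 0.0694 for Cd83). With upper-quartile scaling, Rgs1 (0.051) and Cd83 (0.0556) lost it, and with no filter Cd83 (0.0667). All 4 kept the call with a filter of 5 RPKM (limma adjusted p-values of 0.0195 to 0.0496) and in limma-voom (0.00469 to 0.0276). They were also called in the authors' deposited table, at adjusted p-values of 1.42e-05 to 0.0117. Macrophages express Maf, and their markers summed to 225.4 to 385.7 RPKM in controls, 1450.7 RPKM in MycKO 5 and 1175.7 in MycKO 6. The part of these cells was not tested.

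None passed limma in the other 4 lists. In the EGR, NR4A and NAB list, 0 of 6 had an unadjusted p under 0.05, and the smallest belonged to Egr2 (log2 fold change 0.73, limma adjusted p = 0.435) and Nr4a2 (0.32, 0.807). Among phosphatases 1 of 8 did, Dusp6, the phosphatase that ends ERK signals, at 16.4, 13.4 and 10.1 RPKM in the controls against 38.3 RPKM in MycKO 5 and 20.7 in MycKO 6 (1.06, limma adjusted p = 0.168). The authors' deposited table called Dusp6, with a log2 ratio of 1.084 and an adjusted p of 0.01085, beside 3.4% of all genes. Like Egr1, Dusp6 was above all controls in both MycKO libraries and higher in library 5. Dusp16 (0.58, limma adjusted p = 0.592) was also above all controls, at 2.99 RPKM in MycKO 5 and 3.92 in MycKO 6. Both MycKO libraries lay above all controls in 3 of the 8 phosphatases, beside 18.8% of all genes tested. Of 21 kinases and upstream factors, Map2k7 (-0.37, limma adjusted p = 0.345) and Mapk9 (0.43, 0.377) had an unadjusted p under 0.05. Of 12 heat shock genes, Hsp90aa1 (0.40, limma adjusted p = 0.142) and Hspe1 (0.33, 0.316) did. The medians of the log2 fold change were -0.02, 0.11, 0.03 and 0.08 in these 4 lists, and 0.08 and 0.14 in the basic leucine zipper and rapidly induced lists, beside 0.05 over all genes.

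The 5 genes outside the list with the profile most like the members' median profile were Ergic1, Stx2, Idi1, Gypc and Hsd17b11. Likeness was the root mean square distance of centred log2(RPKM + 1) values over the 5 libraries, and it was 0.13, 0.15, 0.16, 0.16 and 0.16 in that order. The members themselves lay at 0.33 (Jun and Ier2) to 0.92 (Fos) from their own median. The 5 genes were chosen as the nearest of all, so their distances are a description. Ergic1, which encodes a protein of the compartment between endoplasmic reticulum and Golgi, measured 15.8 RPKM in control 1, 10.3 in control 2 and 8.83 in control 3, against 18.4 RPKM in MycKO 5 and 13.2 in MycKO 6. Its annotated start overlaps the upstream end of the annotated Dusp1 gene, as given above.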

How the data were processed

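Per the labels' protocols, 3 control and 2 MycKO libraries of splenic NK cell RNA were made with a strand-specific kit and sequenced as single reads. The submitters' processing notes name TopHat, edgeR and mm10, without versions or roles; the annotation and the counting tool, with its strand setting, are likewise not stated. Per the file headers, the deposited table gives 1 value per sample, which are RPKM, and the authors' mean normalized signal, ratio (fold change), log2 ratio, p-value and adjusted p-value; the authors' test is not named. The lowest mean signal was 2.1, so very low genes are not in the table.

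RPKM was analysed as log2(RPKM + 1) for genes reaching 1 RPKM in 2 or more libraries, with limma 3.58.1 (R 4.3.3), both groups, a variance trend, and Benjamini-Hochberg adjustment over 11190 genes (two-sided, threshold 0.05). Sample and group mean values together gave the reads behind each RPKM; 100% came out whole within 0.0001 of a read. They gave depth, 95% counting intervals (exact, counting error only) and limma-voom. No 2 libraries agreed within counting noise (chi-square per degree of freedom at least 17.5). The procedure was also run on simulated reads, with the same spread setting for all genes and no shift shared by genes within a library. That run does not show how the test behaves for genes as variable as the members.

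The members and gene lists were chosen with earlier results of these data known. 1 gene of the basic leucine zipper list is not reported here and is left out of that list's counts and medians. Named are the 10 members, Myc, Ncr1, from each pathway list the 2 genes with the smallest p and any called, the most abundant gene of each marker list and the 5 genes of most similar profile with an average of at least 3. Outside this rule are the genes overlapping members, and Mpo, Csf1r, Cd68, Klf4, Phlda1, Dusp10, Csrnp1, Hsph1, Ier5 and Fosl2, picked with their values in view. Coordinates are from GENCODE vM21 (mm10). Alternatives were a filter of 5 RPKM, no filter, a pseudocount of 0.1, 2 other scalings, limma-voom, no variance trend, the authors' adjusted p-values, a threshold of 0.01 and leaving out each library. Figures were drawn with matplotlib 3.10.9.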

Additional observations from a re-analysis of the deposited data

How the results depend on the processing

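No paired analysis was possible because the groups share no replicate numbers. The number of members called was 0 under all 14 alternatives, which tested 8 genes with a filter of 5 RPKM, all 10 with no filter and in the authors' deposited table, and 9 otherwise. In the settings that change the estimate, 85 of 90 fold changes of single members kept their direction. The others were Fos, at -0.28 without control 3 (up to 1.54 without control 1), Ier2, at 0.037 without control 1 (down to -0.27 without control 3), and Dusp1, at -0.18 without control 3, -0.089 without MycKO 6 and -0.054 in the authors' deposited table (up to 0.94 without control 1). Without control 3, the library lowest in Fos, Jun, Nr4a1 and Dusp1, Jun was at 0.21 and Nr4a1 at 0.71. The lowest adjusted p of any member was 0.0503, for Egr1 in the authors' deposited table. Over all genes, 150 were called. The count was 80 with a pseudocount of 0.1, 232 in limma-voom, 442 in the authors' deposited table, 24 at an adjusted p under 0.01, and 34 to 217 when 1 library was left out (34 without MycKO 5, 35 without control 3, 39 without control 1, 54 without MycKO 6 and 217 without control 2). The cause was not tested. With 1 MycKO library left, it is assumed to vary like the controls. Reads were fewest for Fosb and Ier3, with 0 to 114 per library, and for Fos in control 3, with 34, and counting error is wide at the lowest of these counts.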
